A study of Mus musculus with 12 samples.

Results

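The genes described here are 9 homeobox genes that pattern the forebrain and midbrain: Otx1, Otx2, Emx2, Six3, Dlx1, Dlx2, Nkx2-1, En1 and En2. They were chosen by name, and every probe matched to one of them by accession, current symbol or older alias was kept, which gave 12 probes of the 41174 on the array, or 9 of 27670 gene names. RNA came from mouse neural progenitor cells of strain 129/Ola, hybridised to one-colour Agilent arrays with 1 array for each culture. Of the 12 cultures, 10 overexpressed a transcription factor (Crebzf, Esx1, Etv6, Gatad2b, Hmga2, Nfxl1, Pax6, Pdx1, Sox11 or Zfp451) and the controls were an EGFP culture and a mock culture. The factors and EGFP were delivered as open reading frames in the retrovirus pMXs-IRESNeo at a titre at which about 95% of the cells expressed the insert. G418, which kills cells that lack the vector's resistance gene, was added 24 h after infection and the cells were collected at 72 h. The labels do not say what the mock culture received. No group had a replicate, so no p-value is given, no value carries a replicate error, and each array is one culture whose own variation was not measured.

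Homeobox genes encode transcription factors that bind DNA through a homeodomain and give cells of the embryo their position. In the anterior neural tube, Otx2 is needed for the forebrain and midbrain to form and holds the boundary with the hindbrain, where En1 and En2 are expressed. Six3 acts at the most anterior end and in the eye field, Emx2 in the dorsal forebrain, and Dlx1, Dlx2 and Nkx2-1 in the ventral forebrain, where inhibitory neurons are born. Neural progenitor cells kept in culture can retain or lose such positional genes.

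Levels are log2 of the background-subtracted signal minus the log2 of the array's 75th percentile, which puts that percentile at 0. A probe was called higher on a factor's array when it was there well above background, by the image software's flag, and exceeded EGFP as well as mock by 2-fold or more. It was called lower when the same held the other way, with both controls well above background. Differences are the factor's array minus the mean of both controls, in log2, with values raised to a floor, which is the dimmest signal flagged well above background on that array. Where a control was not above background, the fold is a lower bound and is written as at least a value. The arrays were of similar brightness, with 75th percentiles from 823.5 to 1026 units, 62.5% to 69.1% of probes above background, 0 saturated spots and floors from -6.96 to -6.45.

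The arrays lay on 3 slides of 4. The Pax6 and Hmga2 arrays shared slide 1 with both controls, slide 2 held Gatad2b, Etv6, Esx1 and Nfxl1, and slide 3 held Crebzf, Pdx1, Sox11 and Zfp451. For slide 3, slide and factor cannot be told apart. Both controls serve all 10 comparisons. The overexpressed genes had 26 probes, of which 3 were brightest on their own factor's array and 0 exceeded all other arrays there by 2-fold. Which of these probes lie inside the inserted open reading frames was not analysed here, so the array labels could not be checked this way. The median difference of the 24410 probes well above background on every array was -0.13 to -0.15 on slide 3 and on the Esx1 array and -0.06 on the Pax6 array, and the differences below are not corrected for this shift.

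Promoter windows from RefSeq, on GRCm38.p6, are shown for 4 genes whose probes could be compared in detail: Otx2, whose signal separated the arrays most, Six3 and Dlx1, whose values differed less, and Dlx2, the neighbour of Dlx1. Each window runs from 250 bases before a transcription start to 50 bases after it and is written 5′ to 3′ on the strand of the gene. Capitals mark TAATTA, a core bound by many homeodomains, and TAATCC, the core preferred by Otx-type homeodomains, each searched on both strands (a match on the other strand reads GGATTA). The motifs do not overlap in these windows.
Otx2, the third annotated start, chr14:48665060-48665359, minus strand: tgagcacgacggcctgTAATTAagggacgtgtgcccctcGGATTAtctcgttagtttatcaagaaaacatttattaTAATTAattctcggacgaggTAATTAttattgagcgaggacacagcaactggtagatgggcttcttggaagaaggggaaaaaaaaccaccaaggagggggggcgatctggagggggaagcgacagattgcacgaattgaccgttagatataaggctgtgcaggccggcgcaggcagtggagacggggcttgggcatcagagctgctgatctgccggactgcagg
Six3, chr17:85620584-85620883, plus strand: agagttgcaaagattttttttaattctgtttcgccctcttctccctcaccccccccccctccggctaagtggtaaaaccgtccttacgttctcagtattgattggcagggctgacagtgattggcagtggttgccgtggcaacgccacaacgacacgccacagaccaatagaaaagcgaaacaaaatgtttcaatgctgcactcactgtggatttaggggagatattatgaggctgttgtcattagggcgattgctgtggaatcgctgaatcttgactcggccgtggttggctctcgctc
Dlx1, chr2:71529195-71529494, plus strand: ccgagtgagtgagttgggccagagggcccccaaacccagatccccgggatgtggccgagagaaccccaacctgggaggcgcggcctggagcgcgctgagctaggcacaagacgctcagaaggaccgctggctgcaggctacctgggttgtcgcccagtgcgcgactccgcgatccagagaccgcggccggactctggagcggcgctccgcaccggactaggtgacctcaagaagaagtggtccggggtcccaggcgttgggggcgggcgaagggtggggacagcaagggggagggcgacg
Dlx2, chr2:71546705-71547004, minus strand: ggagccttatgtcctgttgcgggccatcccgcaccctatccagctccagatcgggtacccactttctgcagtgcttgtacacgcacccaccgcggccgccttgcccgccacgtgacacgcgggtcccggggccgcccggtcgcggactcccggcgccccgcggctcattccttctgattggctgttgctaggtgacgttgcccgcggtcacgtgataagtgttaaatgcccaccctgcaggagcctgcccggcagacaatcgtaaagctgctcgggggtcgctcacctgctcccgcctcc
The Otx2 window shown held TAATTA at 3 places and TAATCC at 1, and the windows of Six3, Dlx1 and Dlx2 held neither. Among 32851 promoter windows of this length, 5.29% held TAATTA and 7.06% held TAATCC. Of the 10 windows matched to members, which belong to 7 genes, 3 held TAATTA (those of the first and the third Otx2 start and of Emx2) and 1 held TAATCC. The Otx2 windows had 6, 8, 16 and 11 CG dinucleotides for the first to the fourth start, that of Six3 14, that of Dlx1 27 and that of Dlx2 29, against a median of 7 over all windows. These matches describe the letters of the windows and no factor's binding was measured.

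Otx2 was called higher on 6 of the 10 factor arrays, Pax6, Esx1, Crebzf, Pdx1, Sox11 and Zfp451, and was not well above background on either control. Its probe lies at chr14:43989807-43989866 (mm7) and was spotted 10 times on each array. The mean level over those spots was -3.53 on the Pax6 array, -3.09 on Esx1, -3.05 on Crebzf, -3.10 on Pdx1, -3.16 on Sox11 and -3.14 on Zfp451. It was -7.29 on Hmga2, -7.03 on Gatad2b, -7.75 on Etv6 and -8.30 on Nfxl1, against -7.98 on EGFP and -7.92 on mock. No value lay between -3.53 and -7.03, and the probe was not well above background on the other 4 factor arrays. The 6 arrays are named here by the Otx2 values themselves and are not groups of the study.

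In signal units the Otx2 probe read 85.8 on the Pax6 array and up to 121.0 on the other 5, against 4.01 on EGFP and 3.92 on mock. All 60 spots on the 6 arrays were well above background. On the other 6 arrays 2 of 59 spots were, both on the Hmga2 array. The SD over repeated spots, which share one labelled RNA and measure technical spread alone, was 0.07 to 0.15 log2 on the 6 arrays and up to 0.65 elsewhere. Otx2 was higher by at least 8.78-fold on the Pax6 array, 12-fold on Esx1, 12.3-fold on Crebzf, 11.8-fold on Pdx1, 11.4-fold on Sox11 and 11.5-fold on Zfp451. The Pax6 array was the lowest of the 6, by 0.38 log2 from the next, which is more than the SD between spots on those arrays.

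**Figure D1:**
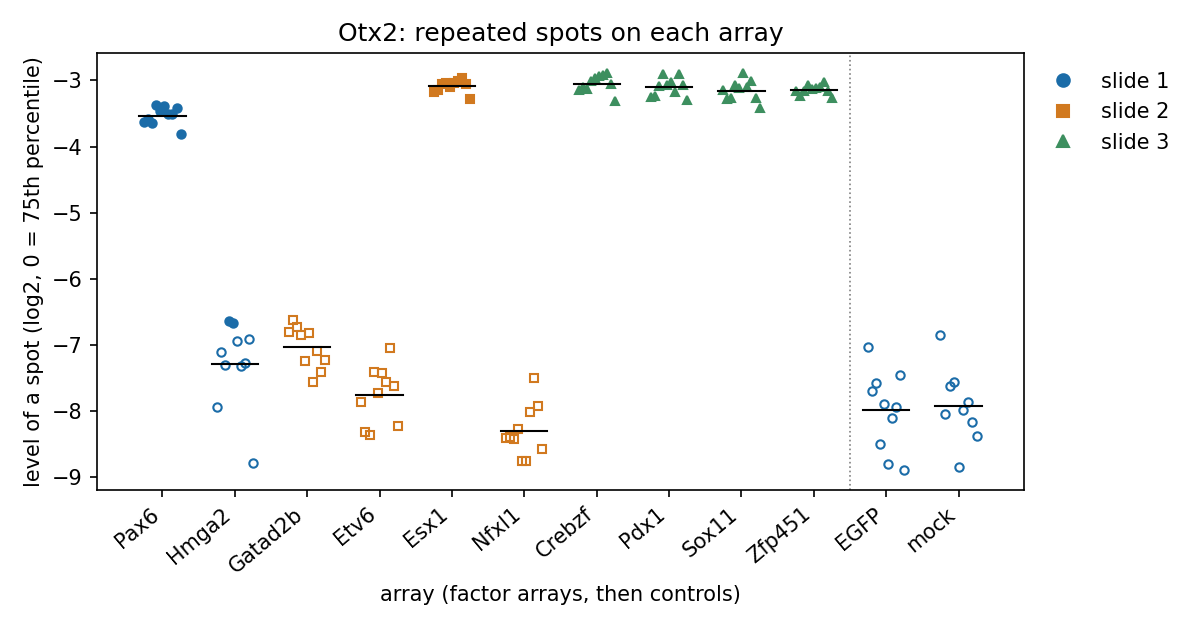
Each point is 1 spot of the Otx2 probe, with its level in log2 (0 is the array's 75th percentile) on the vertical axis and the 12 arrays on the horizontal axis, factor arrays first and EGFP and mock at the right of the dotted line. Filled points are well above background, colours give the slide and bars give the mean: the 6 called arrays sit between -3.53 and -3.05, and all others at -7.03 or lower.

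Otx2 was called within slides as well. On slide 1, which holds the controls, the Pax6 array was called and the Hmga2 array was not. On slide 2 the Esx1 array stood 3.51 log2 above the Gatad2b array, 3.37 above Etv6 and 3.36 above Nfxl1, after the floor. Otx2 and Dlx1 were the member probes at least 2-fold above all 3 of those neighbours, where 9.26% of all tested probes met that rule. When each array was centred on its slide, the Otx2 differences on slide 3 were 0.72 to 0.83 and no longer called, since that step removes what the 4 arrays share. What was left came mainly from slide 1, where the Pax6 array raised the mean subtracted from the controls. With normexp background correction the differences on the 6 arrays were 1.05 to 1.37, and Otx2 was still called on all of them.

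Six3, a repressor of Wnt signalling at the anterior end of the neural plate, had 2 probes 532 bases apart on chromosome 17. Probe 1 (chr17:83919650-83919709, mm7) was well above background on all 12 arrays. Its level was -2.47 on the Pax6 array, -2.82 on Esx1, -2.60 on Crebzf, -2.87 on Pdx1, -2.52 on Sox11 and -2.40 on Zfp451. It was -3.47 on Hmga2, -3.51 on Gatad2b, -3.45 on Etv6 and -3.47 on Nfxl1, against -3.54 on EGFP and -3.62 on mock. The arrays with Otx2 called were the 6 highest for Six3 probe 1 too, and their values did not overlap those of the other 6. The share of all probes that divide the arrays in this way was not counted. On each of these 6 arrays 15.9% to 17.8% of all tested genes were called in either direction. On Hmga2, Gatad2b, Etv6 and Nfxl1 it was 0.999% to 1.87%.

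Six3 probe 1 was called on 3 arrays: 2.16-fold higher on Pax6, 2.08-fold on Sox11 and 2.26-fold on Zfp451. It stood 1.97-fold above the controls on Crebzf, where it missed the rule at 0.94 log2 above EGFP, and 1.69-fold on Esx1 and 1.63-fold on Pdx1. The Hmga2, Gatad2b, Etv6 and Nfxl1 arrays differed from the controls by 0.07 to 0.13 log2. Both controls differed from each other by 0.08 log2, and among 2597 probes of like level that difference had a median of 0.11 and a 95th percentile of 0.41. The 3 calls lie close to the threshold: with quantile normalization the differences were 0.85 on Pax6, 0.87 on Sox11 and 0.98 on Zfp451, and with normexp correction 0.75, 0.66 and 0.72 in that order, below 2-fold each time. On slide 2, the Esx1 array was 0.63 to 0.69 above its 3 neighbours.

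Probe 2 of Six3 (chr17:83920182-83920241, mm7) was dim. It was well above background on 7 arrays, with levels from -7.65 on Nfxl1 to -5.66 on Pax6, and -6.32 on EGFP and -6.85 on mock. Crebzf at -6.49 and Pdx1 at -6.38 lay below EGFP, so the arrays with Otx2 called overlapped the rest for this probe. The Pax6 array stood at least 0.78 and the Sox11 array at least 0.76 above the control mean, and no array was called. Among 2899 probes of like level the controls differed by up to 1.78 log2 at the 95th percentile, so differences of that size lie within the spread between the controls.

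Dlx1 and Dlx2 encode related homeodomain proteins that act together in ventral forebrain progenitors and interneurons. The genes lie on opposite strands of chromosome 2 with 9427 bases between them on GRCm38.p6, and their probes lie at chr2:71377152-71377211 and chr2:71387206-71387265 (mm7). Both probes were well above background on all 12 arrays. The Dlx1 level was 1.61 on the Pax6 array, 2.06 on Esx1, 1.39 on Crebzf, 1.44 on Pdx1, 1.36 on Sox11 and 1.55 on Zfp451. It was 0.44 on Hmga2, 0.58 on Gatad2b, 0.68 on Etv6 and 0.69 on Nfxl1, against 0.64 on EGFP and 0.50 on mock. As for Six3 probe 1, the 6 arrays with Otx2 called were the highest and did not overlap the rest. Here the Esx1 array stood above the other 5. The share of all probes with this division was not counted.

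Dlx1 was called on the Esx1 array alone, 2.81-fold higher, and within slide 2 that array stood 1.48 log2 above Gatad2b, 1.38 above Etv6 and 1.37 above Nfxl1. On the Pax6 array it was 2.06-fold above the control mean and 0.98 log2 above EGFP, just short of the rule, and on Zfp451 it was 1.97-fold above. The differences on Crebzf, Pdx1 and Sox11 were 0.82, 0.87 and 0.79 log2, and those on Hmga2, Gatad2b, Etv6 and Nfxl1 lay between -0.13 and 0.12. Probes of like level (2572) differed between the controls by a median of 0.06 and a 95th percentile of 0.18, which the differences on all 6 arrays exceed. That spread comes from the EGFP and mock arrays alone, which share slide 1, so it does not measure differences between slides. With quantile normalization Dlx1 stood 1.17 above the control mean on Pax6, 1.60 on Esx1 and 1.06 on Zfp451. On Crebzf, Pdx1 and Sox11 it then stood 0.90, 0.96 and 0.87 above. Which arrays pass 2-fold for Dlx1, beside Esx1, thus depends on the scaling.

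Dlx2 showed no such division. Its level was 3.31 on Pax6, 3.30 on Esx1, 3.12 on Crebzf, 3.43 on Pdx1, 3.23 on Sox11 and 3.27 on Zfp451. On Hmga2 it was 3.12, on Gatad2b 3.11, on Etv6 3.05 and on Nfxl1 3.09, against 3.16 on EGFP and 3.29 on mock. The 12 arrays spanned 0.38 log2, the mock level lay among those of the 6 arrays, and no array was called. Differences from the controls ran from -0.17 to 0.21, and the difference between the controls was 0.13. With quantile normalization they ran from 0.07 to 0.42 on the 6 arrays and from -0.19 to -0.11 on Hmga2, Gatad2b, Etv6 and Nfxl1. The factor arrays then divided as for Dlx1, so the lack of a division depends on the scaling.

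**Figure D2:**
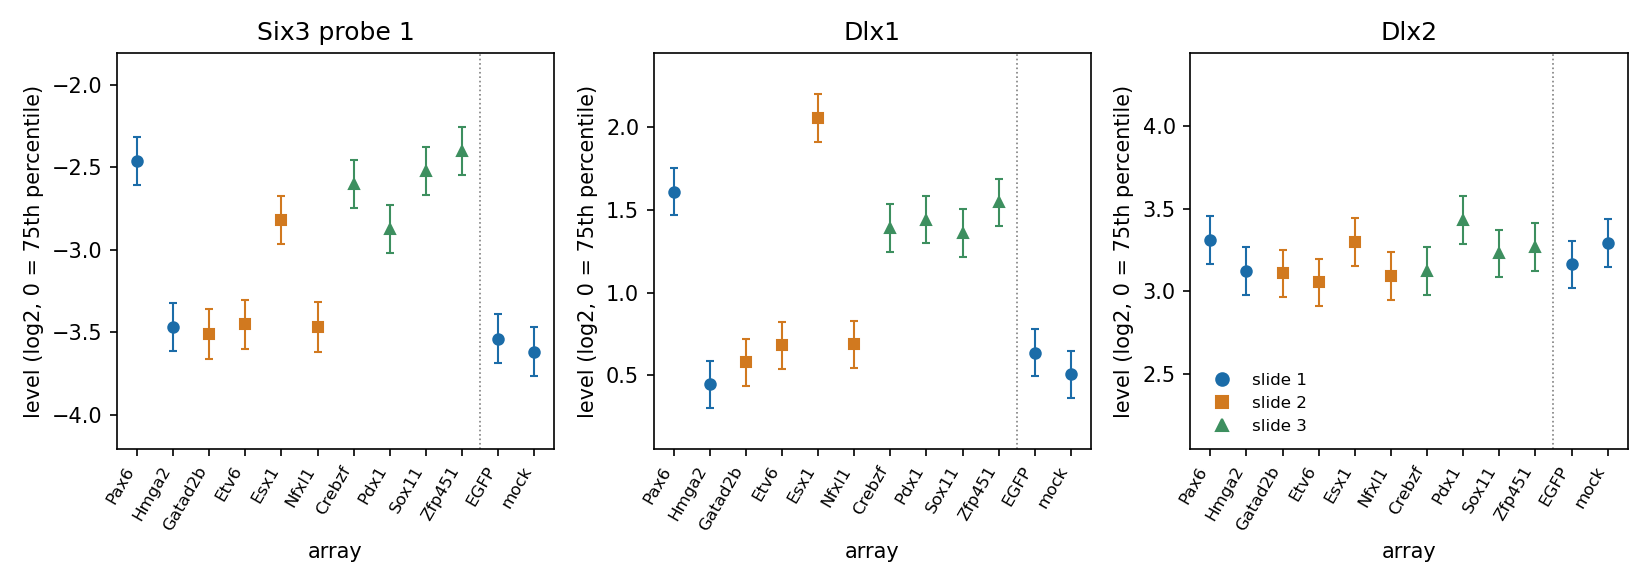
Levels of Six3 probe 1, Dlx1 and Dlx2 (log2, 0 is the array's 75th percentile) on the 12 arrays, factor arrays left of the dotted line and EGFP and mock right of it, with colours for the slide and bars for the image software's error of 1 spot. Axes span the same range in log2: Six3 probe 1 and Dlx1 are higher on the 6 arrays with Otx2 called, by 0.71 to 1.49 above the controls, while Dlx2 spans 0.38 over all arrays.

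Otx1, the relative of Otx2 that acts later in the cortex, was near background. Its probe 1 (chr11:21947773-21947832, mm7) was well above background on 8 arrays, at -5.18 on Pax6, -5.93 on Esx1, -5.85 on Crebzf, -5.63 on Pdx1, -5.60 on Sox11, -5.61 on Zfp451 and -6.36 on Hmga2, and at -6.10 on EGFP among the controls. Gatad2b at -6.53, Etv6 at -8.00, Nfxl1 at -6.68 and mock at -6.49 were not. The 6 arrays with Otx2 called were again the 6 highest for this probe, a division whose share over all probes was not counted. Differences on them were 1.12, 0.36, 0.44, 0.66, 0.69 and 0.68 for Pax6, Esx1, Crebzf, Pdx1, Sox11 and Zfp451 in that order, all under the 1.41 that marked the 95th percentile of differences between the controls among 3001 probes of like level. No array was called, with Pax6 0.92 above EGFP. Probe 2 (chr11:21950397-21950456), 2624 bases away, was well above background on 5 arrays, ranged from -7.40 on Hmga2 to -5.98 on Pdx1 and was called on none. Its EGFP level of -6.36 lay above Crebzf (-6.57) and Zfp451 (-6.95), so the division did not hold for probe 2.

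Emx2, a regulator of the dorsal cortex, and Nkx2-1, which specifies the medial ganglionic eminence and parts of the hypothalamus, were well above background on no array. The Emx2 probes (chr19:59386325-59386384 and chr19:59386872-59386931, mm7, 547 bases apart) read -8.47 to -6.57 and -9.06 to -8.52. The Nkx2-1 probe, listed in the files under its older name Titf1 (chr12:54462492-54462551), was at -8.94 to -7.32 over 10 spots, of which 2 of 116 on all arrays were well above background, 1 on Esx1 and 1 on Sox11. For these 3 probes there is only a bound on each array, and the differences of such probes hold the floors of the arrays rather than a signal.

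En1 and En2, which maintain the midbrain and hindbrain boundary region, were dim, well above background on all 12 arrays and called on none. Each has 1 probe spotted 10 times, at chr1:120474984-120475043 and chr5:27204383-27204443 (mm7). For En1 the level ran from -5.47 on Esx1 to -5.18 on Zfp451 among factor arrays, against -5.11 on EGFP and -5.27 on mock. Its differences were -0.28 to 0.02, and the SD over spots was 0.11 to 0.30. With quantile normalization En1 was higher than the controls on Gatad2b, Etv6, Nfxl1 and Hmga2, so no direction holds for it.

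For En2 every factor array lay below both controls. Its level was -5.32 on Pax6, -5.42 on Hmga2, -5.41 on Gatad2b, -5.45 on Etv6, -5.46 on Esx1, -5.60 on Nfxl1, -5.45 on Crebzf, -5.25 on Pdx1, -5.61 on Sox11 and -5.55 on Zfp451, against -5.07 on EGFP and -5.08 on mock. The differences were small, from -0.53 on Sox11 to -0.18 on Pdx1, and the SD over spots was 0.11 to 0.36. They stayed negative on all 10 with quantile normalization, from -0.57 to -0.15, while with normexp correction they ran from -0.24 to 0.01, with Gatad2b above 0. Probes of like level (2895) differed between the controls by a median of 0.19 and a 95th percentile of 0.75, so no single En2 difference exceeds that spread, and the same controls enter all 10.

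Over all 12 member probes, 10 of 120 combinations of probe and factor array were called, all of them higher. On the Pax6 array 2 were called (Otx2 and Six3 probe 1), where 9.87% of the 31387 tested probes were called higher and 6.25% lower. On Esx1 the 2 were Otx2 and Dlx1, where 9.38% of all were higher and 7.62% lower. Otx2 was the 1 called on Crebzf, where 8.69% were higher and 6.27% lower, and on Pdx1, where 8.69% were higher and 6.8% lower. Otx2 and Six3 probe 1 were the 2 called on Sox11, with 8.6% of all higher and 6.83% lower, and on Zfp451, with 8.6% higher and 6.1% lower. These shares are over tested probes, and 9 of the 12 member probes were tested. With 9 probes, 1 or 2 calls on an array are too few to set the members apart from these shares.

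On the other 4 factor arrays 0 member probes were called in either direction. There the shares of all tested probes called higher and lower were 0.398% and 0.43% on Hmga2, 0.573% and 0.892% on Gatad2b, 0.927% and 0.749% on Etv6, and 0.258% and 0.918% on Nfxl1. With the floor, the median difference over the 12 member probes was 0.19 on Pax6, 0.19 on Esx1, 0.01 on Crebzf, 0.13 on Pdx1, 0.13 on Sox11 and 0.05 on Zfp451, beside -0.08, -0.24, 0.04, -0.29, -0.21 and 0.05 over all 41174 probes. On Hmga2, Gatad2b, Etv6 and Nfxl1 it was -0.10, -0.06, 0.05 and 0.06, beside -0.08, 0.07, 0.08 and 0.07. As measured, without the floor, the member medians on the first 6 arrays were 0.68, 0.41, 0.11, 0.23, 0.54 and 0.27 in the same order, so their size rests on how signals at background are treated.

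**Figure D3:**
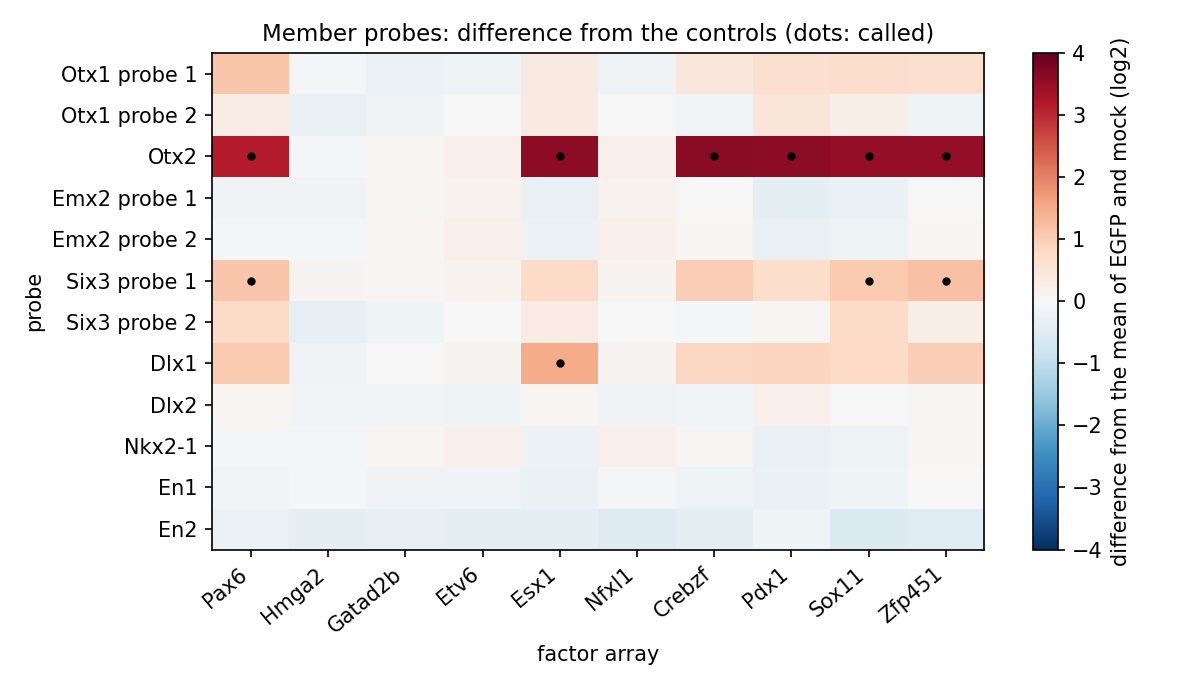
Difference of each member probe (vertical axis) on each factor array (horizontal axis) from the mean of the EGFP and mock arrays, in log2, with values at background raised to each array's floor; red is higher, blue lower, and dots mark calls. The 10 calls lie on Otx2 (6 arrays), Six3 probe 1 (3) and Dlx1 (1), and the Hmga2, Gatad2b, Etv6 and Nfxl1 columns hold none.

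Other genes that pattern the same regions were read from a list of 50, of which 49 had a probe, 36 were well above background on at least 1 array and 13 on none. On 21 of the 36 no array was called, 9 were called higher somewhere and 6 lower. The Pax6 array had 6 higher and 1 lower, where 17.1% of all 20922 tested genes were called in either direction. On Esx1 8 were higher and 0 lower, beside 17.8% of all genes. Of the slide 3 arrays, Crebzf had 7 higher with 3 lower (16.1% of all), Pdx1 7 with 2 (16.5%), Sox11 7 with 4 (16.7%) and Zfp451 6 with 1 (15.9%). On Hmga2 there were 0 higher and 1 lower (0.999%) and on Gatad2b 0 and 1 (1.64%), while Etv6 (1.87%) and Nfxl1 (1.46%) had none. The median difference of the list was -0.10 on Pax6, -0.44 on Esx1, -0.15 on Crebzf, -0.40 on Pdx1, -0.37 on Sox11 and -0.14 on Zfp451, beside -0.08, -0.20, -0.09, -0.20, -0.21 and -0.09 over all tested genes. It was -0.08 on Hmga2, -0.16 on Gatad2b, -0.11 on Etv6 and -0.25 on Nfxl1, beside -0.04, 0.02, -0.02 and -0.01 over all.

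Of the 9 genes called higher, 4 were called on the same 6 arrays as Otx2. The share of all genes called on all of these 6 arrays was not counted, so the 4 are not set apart from it. Vax2, a ventral eye homeobox gene, had a level of 0.71 on Pax6, 1.04 on Esx1, 1.11 on Crebzf, 1.18 on Pdx1, 1.17 on Sox11 and 1.05 on Zfp451, against -0.99 on EGFP and -0.95 on mock. Its differences were 1.68 to 2.15. Pax6, the paired-type regulator of eye and cortex, differed by 1.34 to 1.77 on these 6 arrays, and for this probe its own array was the lowest of the 6. A second of its probes was called on them as well, and there its own array ranked 4 among all arrays. The third probe, well above background on 2 arrays and called on none, was brightest on its own array, at least 0.82 above the controls. Meis2, a cofactor of homeodomain proteins, differed by 1.12 to 1.45 with 2 probes called on the 6, and Foxa2, a floor plate factor, by 1.36 to 1.73.

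Lhx2, which is needed for eye and cortex, was called on 5 arrays by 1.38 to 1.64 and stood 0.82 above the controls on the Pax6 array. Fgf8, the signal of the anterior neural ridge and of the midbrain and hindbrain boundary, was called on 5 by 1.09 to 1.47 and stood 0.94 above the controls on Zfp451. Another Fgf8 probe was well above background on 1 array. Pax3 was called on the Pax6 array alone (1.10), without its second probe, and Zic2 on the Esx1 array alone (1.67).

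The 6 genes called lower were dim, with control levels from -5.92 to -3.57. Pax7, a dorsal midbrain gene, was at least 1.52 to 1.79 log2 lower on Crebzf, Pdx1, Sox11 and Zfp451, where its probe was not well above background, against -5.16 on EGFP and -5.01 on mock. Lmx1b, which specifies midbrain dopamine neurons, had differences of -1.13 on Pax6, -1.43 on Hmga2 and -1.06 on Sox11. Pitx3, also of those neurons, was called lower on Crebzf (-1.15) and Sox11 (-1.18), as was Nkx2-4 (-1.05 and -1.07). Barhl2 was at least 1.15 log2 lower on Pdx1 and Nr2f1 at least 1.81 lower on Gatad2b.

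**Figure D4:**
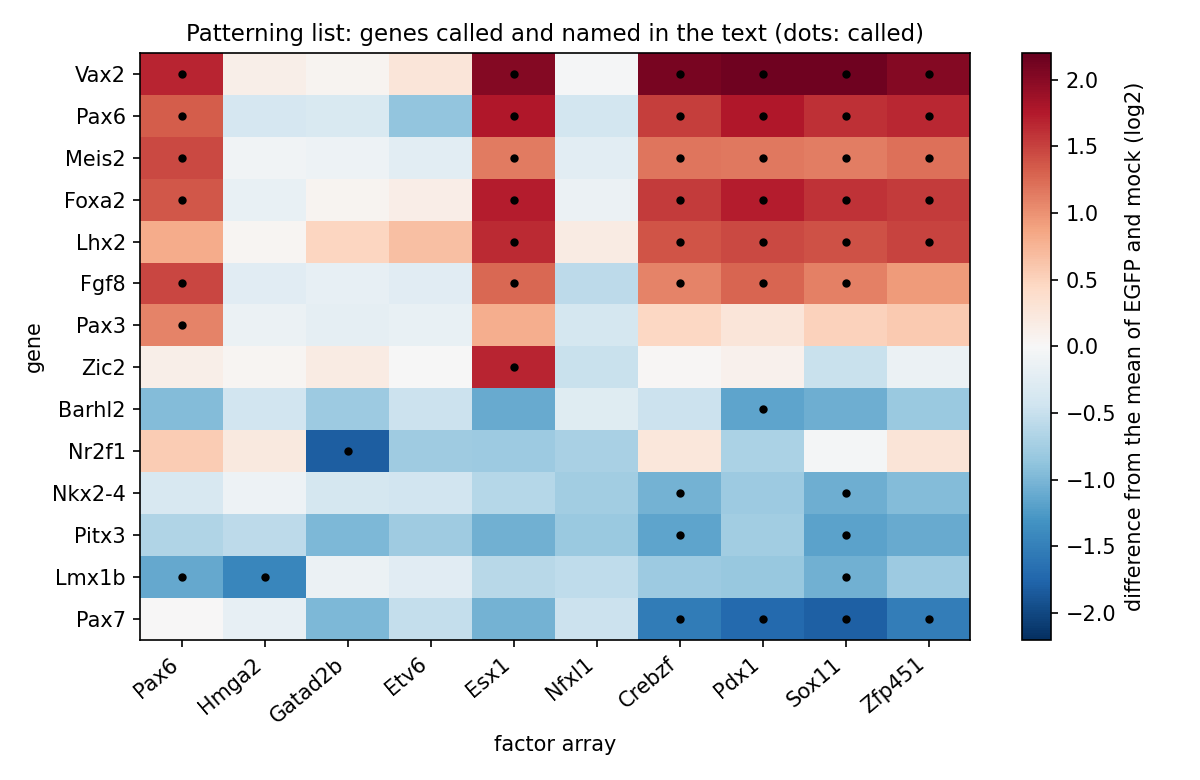
Difference from the mean of the EGFP and mock arrays (log2) of the listed patterning genes that are named in the text as called on at least 1 factor array, with genes down the page and factor arrays across; red is higher, blue lower, and dots mark calls. Vax2, Pax6, Meis2 and Foxa2 are called on the 6 arrays with Otx2 called, and of the lower calls the Pax7 ones lie on 4 arrays.

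The cell identity of the cultures was read from marker lists on the same arrays. In bulk RNA, fewer cells of a type and less RNA per cell cannot be told apart. Of 12 neural progenitor markers, 9 or 10 were well above background on the 6 arrays with Otx2 called and 8 to 10 on the other 6. Their summed signal was 6.34 to 6.59 (log2, on the level scale) on the 6 and 6.60 to 6.96 on the others. Nes was at 1.92 to 2.35 on the 6 and 3.34 to 3.61 on the others, Vim at 6.19 to 6.48 and 6.38 to 6.79, Sox2 at 0.52 to 1.21 and 0.24 to 0.79, and Sox3 was well above background on none. Prom1 was lower on the 6, at -2.88 to -2.58 and -2.27 to -1.50. The gene Pax6, also on this list, ran the other way, at -1.27 to -0.84 on the 6 and -3.47 to -2.60 on the others. So did Fabp7, a radial glia marker: it was well above background on 5 of the 6, at -6.15 to -5.25, and at -8.64 on the Pax6 array, and on none of the others, at -9.03 to -8.67. Fibroblast genes were present beside them: 6 or 7 of 7 fibroblast markers were well above background on each array, with a summed signal of 7.78 to 7.88 on the 6 and 6.51 to 6.67 on the others.

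The sums of other lists also differed between the 6 arrays and the rest, each carried by its brightest members, and single markers did not all go the same way. The neuron list summed to 0.76 to 0.95 on the 6 arrays and to -0.15 to 0.07 on the others, with 5 or 6 and 4 to 7 of its 7 markers well above background. The astrocyte list summed to 2.61 to 3.13 and 1.57 to 2.02 (3 of 6 and 3 to 5 of 6, with Slc1a2 on none), the oligodendrocyte list to 1.65 to 2.01 and 1.16 to 1.41 (4 of 5 and 4 or 5 of 5), and the pluripotent list to -0.93 to -0.63 and -1.44 to -1.24 (2 to 4 of 5 and 3 or 4 of 5). In the pluripotent list Dppa5a was brightest on every array, with Nanog next on the 6. Esrrb was well above background on none of the 6 (-7.92 to -6.49) and on all of the others (-4.69 to -4.05). It was brighter than Nanog on Hmga2, Etv6 and Nfxl1. Genes of hindbrain and spinal cord position summed to 1.33 to 2.21 on the 6 arrays and 0.00 to 0.23 on the others, with 6 or 7 and 3 to 6 of 8 well above background. Hoxa10 carried that sum, at 0.95 to 2.03 on the 6 and -1.33 to -1.10 on the others. The dimmer Hoxb2 (-4.66 to -3.61 and -7.58 to -6.28), Hoxb4 (-5.74 to -5.27 and -7.05 to -6.35) and Hoxb8 (-6.21 to -4.74 and -9.08 to -8.73) were higher on the 6 too. Hoxa2 (-3.35 to -2.85 and -2.76 to -2.08) and Hoxa4 (-2.14 to -1.51 and -1.22 to -1.10) were lower on the 6, and Hoxc6 and Hoxc10 overlapped. In the neuron list Map2 was at -0.19 to 0.11 on the 6 and -1.40 to -1.12 on the others, and Snap25 at -2.85 to -2.07 and -5.72 to -5.15. Syt1 and Stmn2 were higher on the 6 as well, and Dcx and Rbfox3 overlapped. Tubb3 leaned the other way, at -1.72 to -1.20 on the 6 and -1.20 to -0.85 on the others, with Crebzf and Nfxl1 level at -1.20. The part of these lists in the Otx2, Six3 and Dlx1 values was not tested. The endothelial list (-5.34 to -4.57 on the 6 and -5.13 to -4.75 on the others, 1 and 1 or 2 of 4, with Pecam1 and Cdh5 on none) overlapped between them. So did that of microglia and blood (-4.14 to -3.32 and -5.20 to -2.90, 1 to 3 of 4 on either side).

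The genes next to the members on GRCm38.p6 were read in the same way, taking the 3 nearest with a probe on each side, and those named here were picked after their values were seen. The share of all genes called on all of the 6 arrays with Otx2 called was not counted. Six2, a relative of Six3 that lies 36545 bases from it, was called higher on the 6 arrays with Otx2 called. Its level was -1.08 on Pax6, -0.60 on Esx1, -0.68 on Crebzf, -0.50 on Pdx1, -0.57 on Sox11 and -0.50 on Zfp451, and -2.69 on Hmga2, -2.61 on Gatad2b, -2.81 on Etv6 and -2.69 on Nfxl1, against -2.60 on EGFP and -2.48 on mock. Metap1d, 2919 bases from Dlx1, was called on none, at 0.62 to 1.04. Itga6, an integrin subunit 252905 bases from Dlx1 on the Dlx2 side, was called lower on the 6 arrays, at 3.15 to 3.39 on them, against 4.70 on EGFP and 4.73 on mock. Peli2, 375203 bases from Otx2, was called higher on the 6, at -3.28 to -1.85 against -4.66 on EGFP and -5.03 on mock, while the nearer Tmem260, 96598 bases away, was called on none.

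Across the 12 arrays, the genes whose profile lay closest to a member's were found by the root mean square distance between levels centred on each gene's own mean, over 13011 genes well above background on all arrays. For Six3 probe 1 they were Gpr176 (0.105 log2), Stamos (0.105) and Gpt (0.113), against a median distance of 0.58. For Dlx1 they were Rep15 (0.0944), Dact1 (0.0945) and Adgrl2 (0.105), against a median of 0.63. With quantile normalization 2 of the 3 for Dlx1 were the same and 0 of the 3 for Six3 were. The other member probes were not well above background on all arrays or ranged over less than 1 log2.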

How the data were processed

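The deposited files came from the image software Agilent Feature Extraction 10.7.3.1, per the file headers, and give a background-subtracted, detrended spot intensity on the linear scale, with its error and flags for well-above-background, saturated and outlier spots. The deposited series table equals that intensity on every array. No further scaling by the authors is named in the headers or labels, and probes carry mm7 positions. Labelling used 0.25 µg of RNA, per the labels. Spots with outlier flags were left out, repeated spots were averaged in log2, and each array's 75th percentile was subtracted. Probes were named through RefSeq tables by accession (22951 probes), symbol (6659) or synonym (3109), or kept the name in the file (8455). Values below an array's lowest well-above-background signal were raised to it. For genes with several probes, the brightest on average was used. A probe counted as tested when well above background on at least 1 array. The text names every member probe, listed patterning genes called on at least 1 array (single values of some listed genes are not reported here, though counts and medians over the list include them), and the 3 nearest profiles. The members and lists were chosen with earlier results of these data known. The call rule was tested on simulated data. R 4.3.3 with limma 3.58.1 (normexp, offset 50) and Python 3.11.15 were used. Alternatives were quantile normalization, normexp, other thresholds, each control alone, slide centring, no floor, probes well above background on all 12 arrays, the mean of a gene's probes and the series table.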

Additional observations from a re-analysis of the deposited data

How the results depend on the processing

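With 1 array a group, the size of any difference between cultures of one kind is unknown, no array could be left out, and dim probes have only bounds. No paired analysis was possible because each group held 1 array. No difference of a called member changed sign under any alternative, and Otx2 kept its 6 calls except under slide centring and where probes had to be well above background on all 12 arrays. Member probes called on Pax6 (2) became 5 at 1.5-fold, 4 against mock alone, and 1 at 3-fold, with normexp or with probes above background on all 12. On Esx1 (2) they became 1 at 3-fold and 1 with that filter. On Crebzf (1) they were 3 at 1.5-fold, 2 against mock alone, and 0 with slide centring or the filter. On Pdx1 (1) they were 3 at 1.5-fold and 0 with centring or the filter. On Sox11 (2) they were 4 at 1.5-fold, 0 with centring, and 1 with quantile normalization, normexp, 3-fold or the filter. On Zfp451 (2) they were 0 with centring and 1 with normexp, 3-fold or the filter. The counts of 2 on Pax6 and on Zfp451 stood with quantile normalization, where Six3 probe 1 fell below 2-fold and Dlx1 rose above it. Normexp, which adds an offset, narrowed the range of levels over the arrays to 1.45 for Otx2 (from 5.25), 0.76 for Six3 probe 1 (1.22), 0.26 for probe 2 (2.0), 0.29 for Otx1 probe 1 (2.82), 0.32 for probe 2 (1.41), 0.42 and 0.29 for the Emx2 probes (1.90 and 0.54), 0.17 for Nkx2-1 (1.62) and 0.28 for En2 (0.53). Quantile normalization widened that of Dlx2 to 0.61 (0.38) and of En1 to 0.73 (0.36), and the cause was not tested. Patterning genes called with the mean of all probes were 4 on Pax6 (7), 5 on Esx1 (8), 6 on Crebzf (10), 5 on Pdx1 (9) and 7 on Sox11 (11). With normexp they were 0 on Hmga2 (1), 0 on Gatad2b (1), 5 on Esx1, 4 on Crebzf and 5 on Sox11. Against EGFP alone Gatad2b had 2 and Etv6 1 (0), and against mock alone Gatad2b had 2. Of the 3 genes closest to Six3 probe 1, 0 were the same with quantile normalization.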
